A study of Mus musculus with 12 samples.

Results

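Hedgehog signalling was followed through 9 of its own genes, Dhh, Ptch1, Smo, Gli1, Gli2, Gli3, Hhip, Sufu and Boc, in mouse mammary tumors treated with doxorubicin, an antibody against PD-1, or both. The 9 genes were taken by their symbols from a given list, and all 9 were among the 21960 genes listed for every tumor. The question was how the pathway's own genes stood in the combination arm, beside doxorubicin and anti-PD-1 given apart.

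The 12 tumors came from female C57BL/6 mice that carried the polyoma middle T oncogene (PyMT) under the mouse mammary tumor virus promoter. The transgene is therefore driven in mammary epithelium, and tumors arise without injection of cells. Whether each tumor came from a different mouse is not stated. There were 3 tumors in each of 4 groups. IgG1 (control antibody) and anti-PD-1 mice were treated from a tumor diameter of 0.6 cm with 20 mg/kg of antibody and then with 10 mg/kg until day 18. DOX/IgG1 and DOX/anti-PD-1 mice were treated from a diameter of 1 cm with 5 mg/kg doxorubicin (DOX, a topoisomerase poison used as chemotherapy) weekly for 5 weeks, each dose followed by 10 mg/kg of the same antibodies. Size at the start and schedule therefore differ between the groups with and without DOX, and their part in any difference cannot be told apart from that of DOX. RNA of whole tumors was sequenced, and the deposited values are log2(TPM + 1), where TPM is transcript abundance corrected for transcript length and scaled to a common total. Values below are given as TPM after the log2 step was reversed. No read counts were used here, so how deeply a tumor was sequenced is not known and counting intervals cannot be given. The listed genes summed to between 609418 and 725506 TPM per tumor.

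The tissue matched its label in each tumor, with all 6 luminal epithelial markers present and summed levels between 2040 TPM (DOX/IgG1 replicate 1) and 3675 TPM (DOX/IgG1 replicate 3). Their most abundant gene was Epcam, with a mean of 728.7 TPM over the 12 tumors. DOX/IgG1 replicate 1 stood apart from the other 11 libraries. Principal components were taken over genes with a mean of at least 1 TPM. On the second, which held 15.1% of the variance, this library lay at 86.6, while the others lay between -22.2 and 17.5. On the first, with 19.6%, DOX/anti-PD-1 replicate 3 lay at 48.4, near DOX/IgG1 replicates 2 and 3 at 52.0 and 53.3. The other combination tumors lay at -3.04 and -1.05. DOX/IgG1 replicate 1 is also the library whose column name carries the extra word "test". The columns of the 3 DOX/anti-PD-1 tumors end differently from those of the other 9, and the meaning of either mark is not given, so whatever it stands for cannot be told apart from the combination. The median correlation of DOX/IgG1 replicate 1 with the other 11 tumors, 0.940 on the log2 scale, was the lowest of the 12. Values without it are given beside results that it turns or moves.

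Hedgehog ligands bind the receptor Patched, which otherwise holds the membrane protein Smoothened inactive. Active Smoothened, in the primary cilium, frees the GLI transcription factors from Sufu and from processing into repressors, and GLI proteins then switch on target genes that include Gli1, Ptch1 and Hhip. In the mammary gland the pathway is best known for signals from epithelium to stroma and for the need to keep it quiet during ductal growth.

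Dhh (desert hedgehog, ENSMUSG00000023000, chromosome 15, 98891152 to 98898540, minus strand of GRCm38) encodes the ligand best known from Schwann cells and the testis. Its level was 1.12, 0.42 and 0 TPM in the IgG1 tumors and 1.37, 1.05 and 1.66 TPM in the anti-PD-1 tumors. With DOX/IgG1 it was 4.75, 2.81 and 5.10 TPM, and with DOX/anti-PD-1 it was 1.57, 1.01 and 1.42 TPM. All 3 DOX/IgG1 tumors lay above the other 9 tumors, while the combination tumors lay within or beside the range of the anti-PD-1 tumors. The share of all genes with this pattern was not counted. Of all genes tested, 9.31% were higher in every DOX/IgG1 tumor than in any IgG1 tumor. In the combination tumors, 5.95% were lower than in any DOX/IgG1 tumor. Dhh was the member whose groups parted most clearly, and the parting was between DOX with the control antibody and everything else. Of the other ligand genes, Ihh was listed at 0 in all 12 tumors and Shh was above 0 in 1 tumor, anti-PD-1 replicate 2, at 0.44 TPM.

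The group means of Dhh were 4.22 ± 1.23 TPM with DOX/IgG1 (SD, n = 3), 1.36 ± 0.305 with anti-PD-1 (SD, n = 3), 1.33 ± 0.290 with DOX/anti-PD-1 (SD, n = 3) and 0.513 ± 0.566 with IgG1 (SD, n = 3). The step from DOX/IgG1 to anti-PD-1 was larger than either SD. Anti-PD-1 and DOX/anti-PD-1 did not differ beyond their spread, and DOX/anti-PD-1 and IgG1 overlapped although their means were further apart than the larger SD. As these are whole tumors, fewer cells of a type and less RNA per cell cannot be told apart.

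The Dhh gene shares sequence space with Rhebl1 on the same strand, a small GTPase gene whose long transcripts run into the Dhh region. Rhebl1 did not follow the same pattern, at 2.26, 2.17 and 0 TPM with DOX/IgG1, 0, 0.80 and 6.82 TPM with DOX/anti-PD-1, 0, 3.02 and 0 TPM with IgG1 and 0, 2.53 and 0.56 TPM with anti-PD-1. The division of reads between overlapping genes is uncertain, more so at levels this low.

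**Figure D1:**
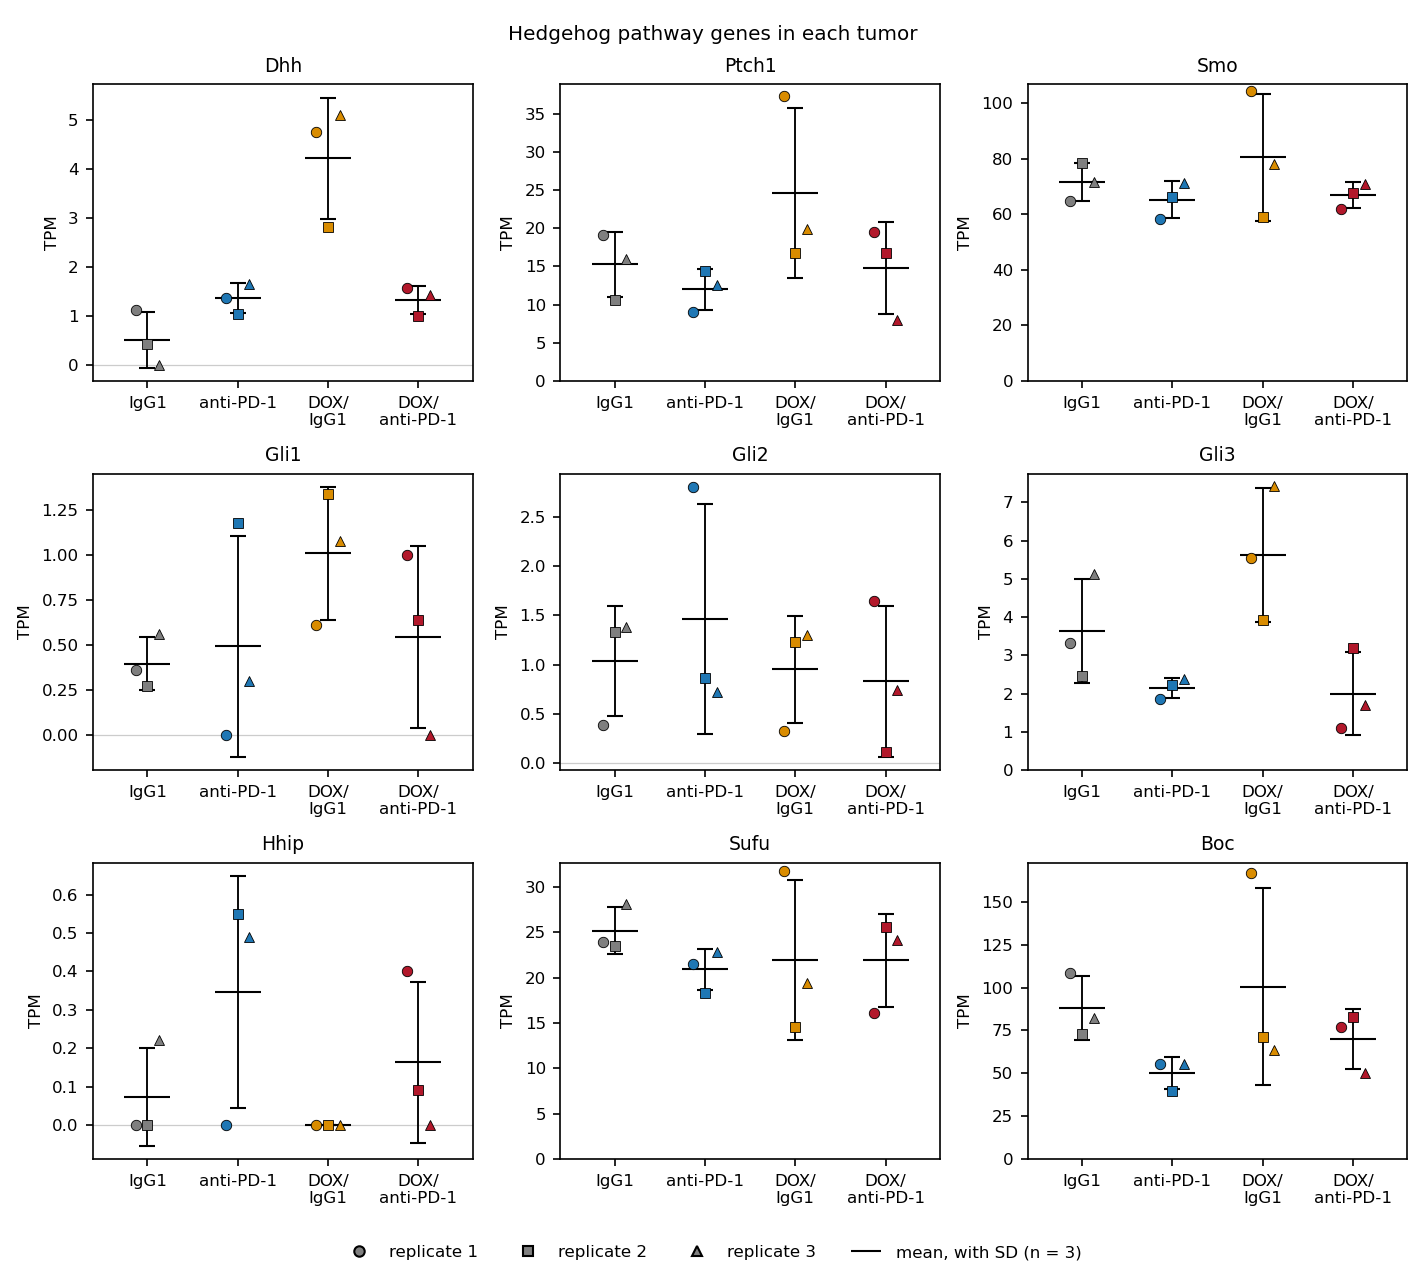
TPM of the 9 Hedgehog pathway genes in each of the 12 tumors (vertical axis, starting at or near 0) by treatment group, with a point for each tumor and a bar for the mean and SD of 3 tumors. Dhh in the DOX/IgG1 tumors, 2.81 to 5.10 TPM, lies above all other tumors, while the combination tumors reach at most 1.57 TPM.

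Ptch1 (Patched 1, ENSMUSG00000021466, chromosome 13, 63508328 to 63573598, minus strand) is both the main receptor and a target that GLI proteins switch on. Its level was 19.11, 10.66 and 16.03 TPM with IgG1 and 9.06, 14.38 and 12.54 TPM with anti-PD-1. With DOX/IgG1 it was 37.34, 16.73 and 19.88 TPM, and with DOX/anti-PD-1 it was 19.52, 16.75 and 7.99 TPM. The highest value belonged to DOX/IgG1 replicate 1, the library that stands apart, and the lowest to a combination tumor. All DOX/IgG1 tumors were above all anti-PD-1 tumors, and every other pair of groups overlapped. No neighbours in the order of means (24.7 ± 11.1 with DOX/IgG1, 15.3 ± 4.28 with IgG1, 14.8 ± 6.02 with DOX/anti-PD-1 and 12.0 ± 2.70 TPM with anti-PD-1; SD, n = 3 each) differed beyond the larger SD.

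Smo (Smoothened, ENSMUSG00000001761, chromosome 6, 29735503 to 29761365, plus strand), the membrane protein that carries the signal inward, was among the steadiest members. It was 64.82, 78.65 and 71.60 TPM with IgG1 and 104.42, 59.02 and 78.06 TPM with DOX/IgG1, the highest value again in replicate 1. The combination tumors, at 61.93, 67.62 and 71.09 TPM, lay close to the anti-PD-1 tumors at 58.30, 66.14 and 71.36 TPM. No neighbouring group means of Smo differed beyond the larger SD.

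Boc (ENSMUSG00000022687, chromosome 16, 44485049 to 44558897, minus strand), a co-receptor that helps ligand bind Patched, was the most abundant member, with a mean of 77.1 TPM per tumor on this per-length scale. It was 108.73, 72.83 and 82.51 TPM with IgG1 and 55.19, 39.57 and 55.55 TPM with anti-PD-1. With DOX/IgG1 it was 166.55, 71.14 and 63.54 TPM, and with DOX/anti-PD-1 it was 77.10, 83.10 and 49.87 TPM. All anti-PD-1 tumors were below all IgG1 tumors, and 2 of the 3 combination tumors were back within the IgG1 range. The mean with DOX/anti-PD-1, 70.0 ± 17.7 TPM (SD, n = 3), was above that with anti-PD-1, 50.1 ± 9.12 TPM (SD, n = 3), by more than either SD, although 1 combination tumor lay among the anti-PD-1 tumors. Neither the step from DOX/IgG1 to IgG1 nor that from IgG1 to DOX/anti-PD-1 was beyond the larger SD.

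Hhip (ENSMUSG00000064325, chromosome 8, 79965851 to 80058006, minus strand), a decoy receptor that binds ligand and a known GLI target, was near the lower end of what the files list. It was 0, 0 and 0.22 TPM with IgG1, 0, 0.55 and 0.49 TPM with anti-PD-1, 0.40, 0.09 and 0 TPM with DOX/anti-PD-1 and listed at 0 in all 3 DOX/IgG1 tumors. It never reached the minimum for testing, its groups overlapped, and no neighbouring means differed beyond the larger SD.

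Sufu (ENSMUSG00000025231, chromosome 19, 46396896 to 46488804, plus strand) holds GLI proteins in the cytoplasm and favors their repressor forms. Its level was 31.75, 14.59 and 19.45 TPM with DOX/IgG1, which held both the highest and the lowest of the 12 values. IgG1 tumors held 23.89, 23.46 and 28.13 TPM and anti-PD-1 tumors 21.54, 18.35 and 22.80 TPM, so these 2 groups did not overlap, with the gap between 22.80 and 23.46 TPM. The combination tumors, at 16.05, 25.53 and 24.16 TPM, lay outside the range of the anti-PD-1 tumors, 1 below and 2 above it, and those 2 lay among the IgG1 tumors. No neighbouring group means of Sufu differed beyond the larger SD.

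Gli3 (ENSMUSG00000021318, chromosome 13, 15463235 to 15730026, plus strand), the family member known mainly as a repressor, was the GLI gene with the highest level per length. It was 3.33, 2.47 and 5.13 TPM with IgG1 and 1.87, 2.22 and 2.38 TPM with anti-PD-1. With DOX/IgG1 it was 5.54, 3.93 and 7.43 TPM, and with DOX/anti-PD-1 it was 1.11, 3.20 and 1.69 TPM. The DOX/IgG1 tumors were above all combination tumors and all anti-PD-1 tumors, and the anti-PD-1 tumors were below all IgG1 tumors. In the order of means, DOX/IgG1 at 5.63 ± 1.75 TPM (SD, n = 3) and IgG1 at 3.64 ± 1.36 TPM (SD, n = 3) were further apart than the larger SD but overlapped. Anti-PD-1 at 2.16 ± 0.261 TPM (SD, n = 3) and DOX/anti-PD-1 at 2.0 ± 1.08 TPM (SD, n = 3) did not differ beyond their spread.

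Gli1 (ENSMUSG00000025407, chromosome 10, 127329882 to 127341974, minus strand), an activator and the textbook readout of an active pathway, never exceeded 1.34 TPM. It was 1.00, 0.64 and 0 TPM in the combination tumors and 0.61, 1.34 and 1.08 TPM with DOX/IgG1. In the IgG1 tumors it was 0.36, 0.27 and 0.56 TPM, all below the DOX/IgG1 tumors by as little as the distance from 0.56 to 0.61 TPM, and with anti-PD-1 it was 0, 1.18 and 0.30 TPM. Gli1 overlaps Arhgap9, a far more abundant gene on the other strand at 7.50 to 37.57 TPM, and although the libraries were prepared with a stranded kit, whether counting used the strand of the reads is not stated, so part of so low a value could come from either gene.

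Gli2 (ENSMUSG00000048402, chromosome 1, 118834132 to 119053619, minus strand), the main activator at the start of the response, was 0.39, 1.33 and 1.38 TPM with IgG1 and 2.80, 0.86 and 0.72 TPM with anti-PD-1. It was 0.33, 1.23 and 1.30 TPM with DOX/IgG1 and 1.64, 0.12 and 0.74 TPM with DOX/anti-PD-1, so that all groups overlapped. Neither Gli1 nor Gli2 had neighbouring group means that differed beyond the larger SD.

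Promoter sequence from RefSeq (GRCm38.p6, 250 bases before to 50 after the gene start) was held for 7 of the 9 members, all but Gli1 and Boc. The GLI consensus GACCACCCA, sought on both strands, was in 0 of the 7 windows and in 83 of all 32851 windows (0.253%). Its core CCACCC, part of the longer motif, was in 5 of the 7 windows on either strand and in 31.5% of all windows. The 7 windows held 56.3 to 76.3% G and C, against 53.8% over all windows, and the core is itself rich in C, so the 2 shares come from windows of unlike base content. The windows of Dhh and Gli3 are shown 5′ to 3′ because these 2 members were lower in all combination tumors than in the DOX/IgG1 tumors. Each holds the core once, in capitals, read on the other strand as GGGTGG, starting 88 bases before the start of Dhh (chr15:98898491-98898790, minus strand) and 170 bases before that of Gli3 (chr13:15463473-15463772, plus strand). These are the starts of the promoter table. For Gli3 that start lies inside the gene as placed above, as it does for Ptch1. A match of letters is a description and no sign of binding.
Dhh: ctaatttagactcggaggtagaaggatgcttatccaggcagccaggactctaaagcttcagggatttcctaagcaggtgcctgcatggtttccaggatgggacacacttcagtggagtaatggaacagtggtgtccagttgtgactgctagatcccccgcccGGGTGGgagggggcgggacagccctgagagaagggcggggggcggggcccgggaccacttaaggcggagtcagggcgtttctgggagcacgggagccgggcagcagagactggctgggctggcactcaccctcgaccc
Gli3: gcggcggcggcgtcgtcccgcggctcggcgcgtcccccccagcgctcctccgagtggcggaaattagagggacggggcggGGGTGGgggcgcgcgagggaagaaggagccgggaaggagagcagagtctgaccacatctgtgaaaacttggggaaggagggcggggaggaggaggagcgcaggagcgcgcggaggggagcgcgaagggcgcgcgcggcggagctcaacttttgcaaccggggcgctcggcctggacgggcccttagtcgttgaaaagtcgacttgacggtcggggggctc

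The first comparison asks what DOX added to anti-PD-1, combination tumors against anti-PD-1 tumors. No member had groups that did not overlap, against 11.1% of all 13736 genes tested that were higher without overlap and 3.84% that were lower. With 6 members tested, 0 is near these shares and is no result about the members. The 6 members that reached at least 1 TPM in 3 of these 6 tumors had log2 fold changes (differences of mean log2(TPM + 1), which understate the change of genes near 1 TPM) from -0.13 for Gli3 to 0.46 for Boc. Dhh differed by -0.02, with a 95% interval from -1.02 to 0.99, Ptch1 by 0.21 (-0.65 to 1.08) and Smo by 0.04 (-0.44 to 0.51). Boc was the member furthest from 0, with an interval from -0.15 to 1.07 and an adjusted p of 0.659 in limma.

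The median over the 6 tested members was 0.04, and over all genes tested it was 0.11. With single tumors left out the members' median ran from -0.02 to 0.11. Other settings took it as low as -0.08, so its sign depended on these choices. With limma, a gene was called at an adjusted p below 0.1 (Benjamini-Hochberg over all genes tested, two-sided) and an absolute log2 fold change above 1. By this rule 0 of the 6 members were called and 0 of all genes (0%), while 1185 genes had an unadjusted p below 0.05, 0 of them members. Gli1, Gli2 and Hhip did not reach the minimum in these tumors. The intervals reach close to 1 in both directions for Dhh and Gli3 and upward for Ptch1 and Boc, so differences up to about that size remain possible with 3 tumors a group.

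The next comparison asks what anti-PD-1 added to DOX, combination tumors against DOX/IgG1 tumors. Of the 8 members tested, 7 had a negative log2 fold change and Sufu, at 0.04, was the exception, while 46.3% of all genes were positive. The tally depended on single tumors. Sufu turned to -0.20 without DOX/IgG1 replicate 2, and Gli2 turned to 0.18 without DOX/anti-PD-1 replicate 2. Dhh and Gli3 were lower in all 3 combination tumors than in any DOX/IgG1 tumor, 2 of 8 members against 5.95% of all 13946 genes. No member was higher without overlap, against 4.27% of all genes. Dhh differed by -1.14 (95% interval -2.22 to -0.06, limma adjusted p 0.988) and Gli3 by -1.17 (-2.29 to -0.05, limma adjusted p 0.988).

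For the remaining members the log2 fold changes were -0.71 for Ptch1 (95% interval -1.70 to 0.29), -0.42 for Gli1, -0.41 for Boc, -0.23 for Smo and -0.14 for Gli2. The members' median was -0.41, and that of all genes tested was -0.04. No member and no gene was called with limma (0%), while 655 genes had an unadjusted p below 0.05, 2 of them members. That number was 1030 without DOX/IgG1 replicate 1. Leaving out DOX/IgG1 replicate 1 gave 3 genes called, 0 of them members, with Ptch1 at -0.37, Smo at -0.02, Gli2 at -0.39, Sufu at 0.33 and Boc at 0.02. With a pseudocount of 0.1 in place of 1, Gli1 was at -1.30 and Gli2 at -0.44. Without DOX/anti-PD-1 replicate 3, Gli1 was at -0.13.

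**Figure D2:**
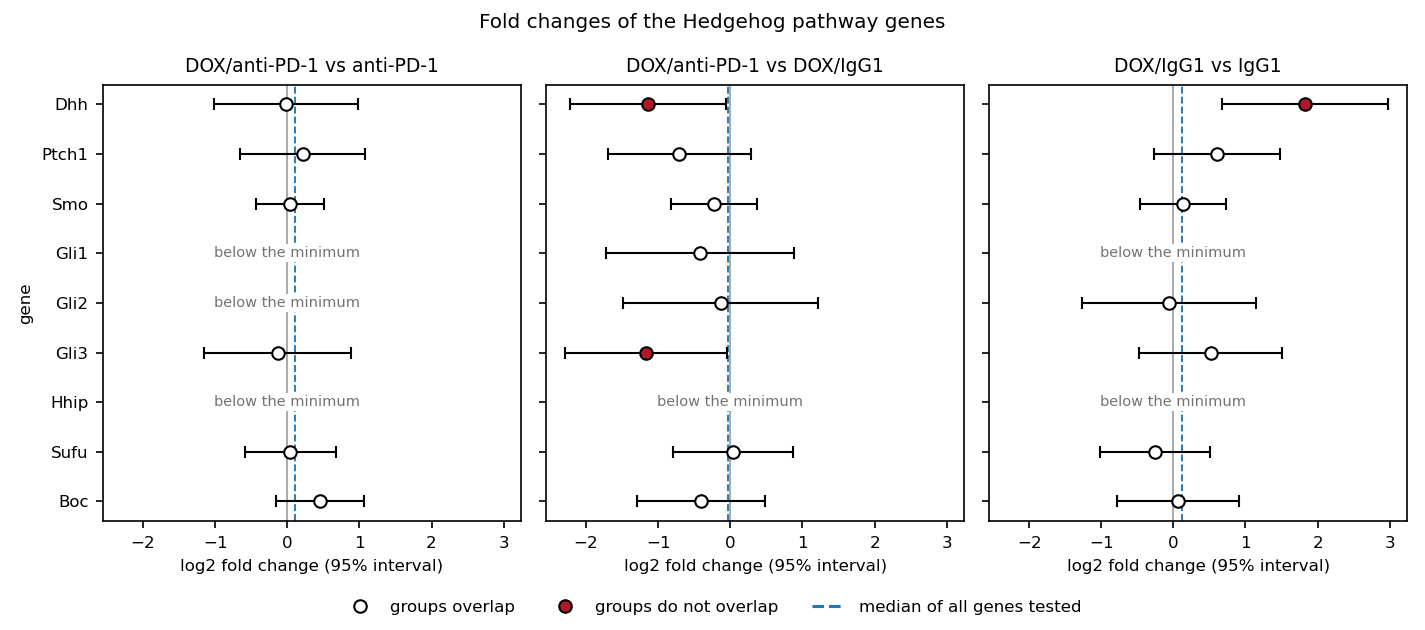
Log2 fold changes of the Hedgehog pathway genes (horizontal axis, points) with 95% intervals (bars) in 3 comparisons, each between 3 and 3 tumors, with filled points where the groups do not overlap and a dashed line at the median of all genes tested. The points lie from -0.13 to 0.46 for the combination against anti-PD-1, with wide intervals. Dhh lies at -1.14 against DOX/IgG1 and at 1.82 for DOX/IgG1 against IgG1.

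DOX with the control antibody was compared with the control antibody alone. This comparison shares its DOX/IgG1 tumors with the one just given, so a high DOX/IgG1 value enters both with opposite sign. Dhh was higher in all 3 DOX/IgG1 tumors than in any IgG1 tumor, by a log2 fold change of 1.82 (95% interval 0.67 to 2.98), with a limma adjusted p of 0.469. Dhh met the minimum here only through the DOX/IgG1 tumors in which it is high, as the IgG1 tumors held 1.12, 0.42 and 0 TPM. It was 1 of 7 members tested, against 9.31% of all 13874 genes that were higher without overlap. No tested member was lower without overlap, against 4.64% of all genes. Ptch1 differed by 0.61 (95% interval -0.26 to 1.48), Gli3 by 0.52 (-0.47 to 1.51), Smo by 0.13, Boc by 0.07, Gli2 by -0.06 and Sufu by -0.25. Without DOX/IgG1 replicate 1, Ptch1 was at 0.28, Smo at -0.07, Gli2 at 0.20, Sufu at -0.55, Boc at -0.36 and the members' median at 0.20. The size for Dhh depends on the pseudocount, and with 0.1 in place of 1 it was 3.39.

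The members' median was 0.13, beside 0.12 for all genes tested. Across the settings that kept all tumors the members' median reached as low as 0.0138. Scaling by the median of ratios took the median of all genes to 0.0135. No member was called with limma, while 5 of all genes were (0.036%) and 1073 genes had an unadjusted p below 0.05, 1 of them a member. Without DOX/IgG1 replicate 1, 1789 genes had an unadjusted p below 0.05. The 5 genes, named here after their values were seen, were Smr3a and Bpifa2, which are salivary gland genes, among the higher ones and Saa1, Saa2 and Hist1h2af among the lower ones. The count depended on the library that stands apart. Without DOX/IgG1 replicate 1 it was 113, and 0 members were among them, with Dhh at 1.74 and an adjusted p of 0.253 over a range of 0.250 to 0.863 across all alternatives. The count was 0 without any of the IgG1 tumors, and 2 or fewer without DOX/IgG1 replicate 2 or replicate 3.

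Both agents together were compared with the control antibody. Dhh differed by 0.68 on the log2 scale (95% interval -0.54 to 1.91), by 1.82 with a pseudocount of 0.1 and by 0.42 without IgG1 replicate 3. Dhh met the minimum here only through the combination tumors, as the IgG1 tumors held 1.12, 0.42 and 0 TPM. It was the only positive member of the 7 tested, beside 58.9% of all genes, with Gli3 at -0.65, Boc at -0.34, Sufu at -0.21, Gli2 at -0.19, Ptch1 at -0.10 and Smo at -0.10. Ptch1 turned to 0.27 without DOX/anti-PD-1 replicate 3, and Gli2 turned to 0.12 without DOX/anti-PD-1 replicate 2. Of the tested members 0 of 7 had groups that did not overlap, against 6.6% of all 13774 genes in the higher and 2.85% in the lower direction. The members' median was -0.19, and that of all genes was 0.08. With limma 0 members and 0 genes were called (0%), and 584 genes had an unadjusted p below 0.05.

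Anti-PD-1 without chemotherapy was compared with its control antibody. Boc, Gli3 and Sufu were lower in all 3 anti-PD-1 tumors than in any IgG1 tumor, 3 of 7 members against 6.24% of all 13692 genes, and no member was higher without overlap, against 3.64%. Boc differed by -0.80 (95% interval -1.36 to -0.23, limma adjusted p 0.996), Gli3 by -0.52 (-1.42 to 0.38) and Sufu by -0.26 (-0.82 to 0.30). Dhh differed by 0.70 (-0.40 to 1.80) and Gli2 by 0.22, both with groups that overlapped. Here too Dhh met the minimum only through the treated tumors, as the IgG1 tumors held 1.12, 0.42 and 0 TPM. The value of Dhh was 0.44 without IgG1 replicate 3 and 1.85 with a pseudocount of 0.1, and that of Gli2 was 0.38 with that pseudocount and -0.14 with anti-PD-1 replicate 1 left out and the tested genes held. Without IgG1 replicate 3 Gli3 was at -0.30, and without anti-PD-1 replicate 2 Sufu was at -0.17. The members' median was -0.26, or -0.42 without IgG1 replicate 2, where 6 members were tested, and that of all genes was -0.03. With limma 0 members and 0 genes were called (0%), and 630 genes had an unadjusted p below 0.05. Most cell type markers were also mostly below 0 here. Positive were 0 of 10 fibroblast, 0 of 6 luminal, 1 of 8 adipocyte, 1 of 7 pericyte and smooth muscle, 1 of 5 tested leukocyte, 2 of 8 tested Schwann cell, 2 of 7 endothelial, 2 of 5 basal, 2 of 7 skeletal muscle and 1 of 2 tested salivary gland markers, beside 47.2% of all genes. The fibroblast sums, led by Postn, were 1675, 1797 and 2875 TPM with IgG1 and 1548, 1313 and 1077 TPM with anti-PD-1. The part of any cell type in the levels of Boc, Gli3 and Sufu was not tested.

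All 12 tumors were then used to average DOX over both antibodies, 6 tumors against 6. Dhh was higher with DOX by 0.90 on the log2 scale (95% interval 0.10 to 1.71, limma adjusted p 0.359) and Ptch1 by 0.41 (-0.18 to 1.00). With a pseudocount of 0.1 the value of Dhh was 1.68. Of 8 members tested, 6 had a positive value, beside 63.3% of all 14735 genes, with a median of 0.23 beside 0.12 for all genes. No member was called with limma, 3 of all genes were (0.0204%), and 1765 genes had an unadjusted p below 0.05. The 3 genes, Gas6, St3gal4 and Col27a1, were named after their values were seen, and none is in the lists used here. Without DOX/IgG1 replicate 1 the members' median was 0.12, Ptch1 was at 0.24 and the count was 211, again with 0 members, without DOX/anti-PD-1 replicate 2 it was 27, and without any other tumor it was between 0 and 6. In an exact permutation test of single genes, with DOX labels exchanged within each antibody (400 arrangements, smallest possible two-sided p 0.005), Dhh had p = 0.06, Ptch1 p = 0.165, Gli1 p = 0.245, Hhip p = 0.3, Boc p = 0.34, Gli2 p = 0.415, Gli3 p = 0.44, Smo p = 0.57 and Sufu p = 0.59. These exact p-values were not adjusted over the 9 members. Without anti-PD-1 replicate 3 the exact p of Dhh was 0.03, without DOX/anti-PD-1 replicate 2 it was 0.035, and the range over all single left-out tumors was 0.03 to 0.085. Without DOX/anti-PD-1 replicate 3 the exact p of Ptch1 was 0.02. Without DOX/IgG1 replicate 1 the exact p was 0.33 for Ptch1, 0.74 for Gli2, 0.185 for Sufu and 0.865 for Boc, and the difference of Smo changed sign with an exact p of 0.85.

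Whether the DOX difference depended on the antibody was tested as an interaction. Dhh had an interaction of -1.84 on the log2 scale (95% interval -3.13 to -0.55), which states that its DOX difference was smaller with anti-PD-1 than with IgG1, with a limma adjusted p of 0.993. With a pseudocount of 0.1 it was -3.42. Gli3 had -0.65 and Ptch1 -0.40, which was -0.06 without DOX/IgG1 replicate 1, and the members' median was -0.37 beside -0.01 for all genes. Boc, at 0.39, and Sufu, at 0.30, were the 2 positive members of the 8 tested, beside 49.4% of all genes. With single tumors left out, Boc ran from 0.13 to 0.82 and Sufu from 0.06 to 0.59. No member was called, 1 of all genes was (0.00679%), namely Bpifa2, which met the minimum only through the DOX/IgG1 tumors and was listed at 0 in the rest, and 694 genes had an unadjusted p below 0.05, 1 of them a member. The count was 0 when any tumor but DOX/anti-PD-1 replicate 3 was left out and the minimum was applied anew. With the tested genes held it was also 1 without DOX/IgG1 replicate 1.

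The summed salivary gland markers were highest in the same tumors as Dhh. In the DOX/IgG1 tumors the 5 markers summed to 64.4, 86.8 and 104.6 TPM, and in the combination tumors to 14.8, 14.6 and 25.0 TPM. In the IgG1 tumors they summed to 5.24, 16.9 and 8.19 TPM, and in the anti-PD-1 tumors to 18.1, 4.85 and 12.2 TPM. The 3 DOX/IgG1 tumors had the highest sums, but this did not hold for each marker. Amy1, the most abundant of the 5 at a mean of 17.1 TPM, was 21.12, 42.79 and 34.28 TPM with DOX/IgG1 and 14.80, 14.61 and 21.80 TPM with DOX/anti-PD-1. Pip was 4.23, 12.50 and 0 TPM with DOX/IgG1 and reached 3.16 TPM in a combination tumor, and Dcpp1 was 8.0, 0 and 1.79 TPM with DOX/IgG1 and listed at 0 elsewhere. Bpifa2 was at 14.43, 21.34 and 53.73 TPM with DOX/IgG1 and listed at 0 in the other 9 tumors, and Smr3a was at 16.58, 10.22 and 14.80 TPM there and listed at 0 elsewhere except for 2.76 TPM in anti-PD-1 replicate 3. Both were called in DOX/IgG1 against IgG1, where they met the minimum only through the DOX/IgG1 tumors in which they are high. The part of salivary tissue in the Dhh values was not tested.

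The sums of the Schwann cell markers were 71.0, 206.8 and 167.1 TPM in the DOX/IgG1 tumors and 171.2, 142.0 and 162.4 TPM in the combination tumors. They were 147.7, 122.7 and 121.3 TPM with IgG1 and 138.8, 124.6 and 171.0 TPM with anti-PD-1. Both the lowest sum, in DOX/IgG1 replicate 1, and the highest, in replicate 2, were in the DOX/IgG1 group, and the part of Schwann cells in the Dhh values was not tested. Sox10 was the most abundant of the 9 markers and Foxd3 was listed at 0 in every tumor.

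**Figure D3:**
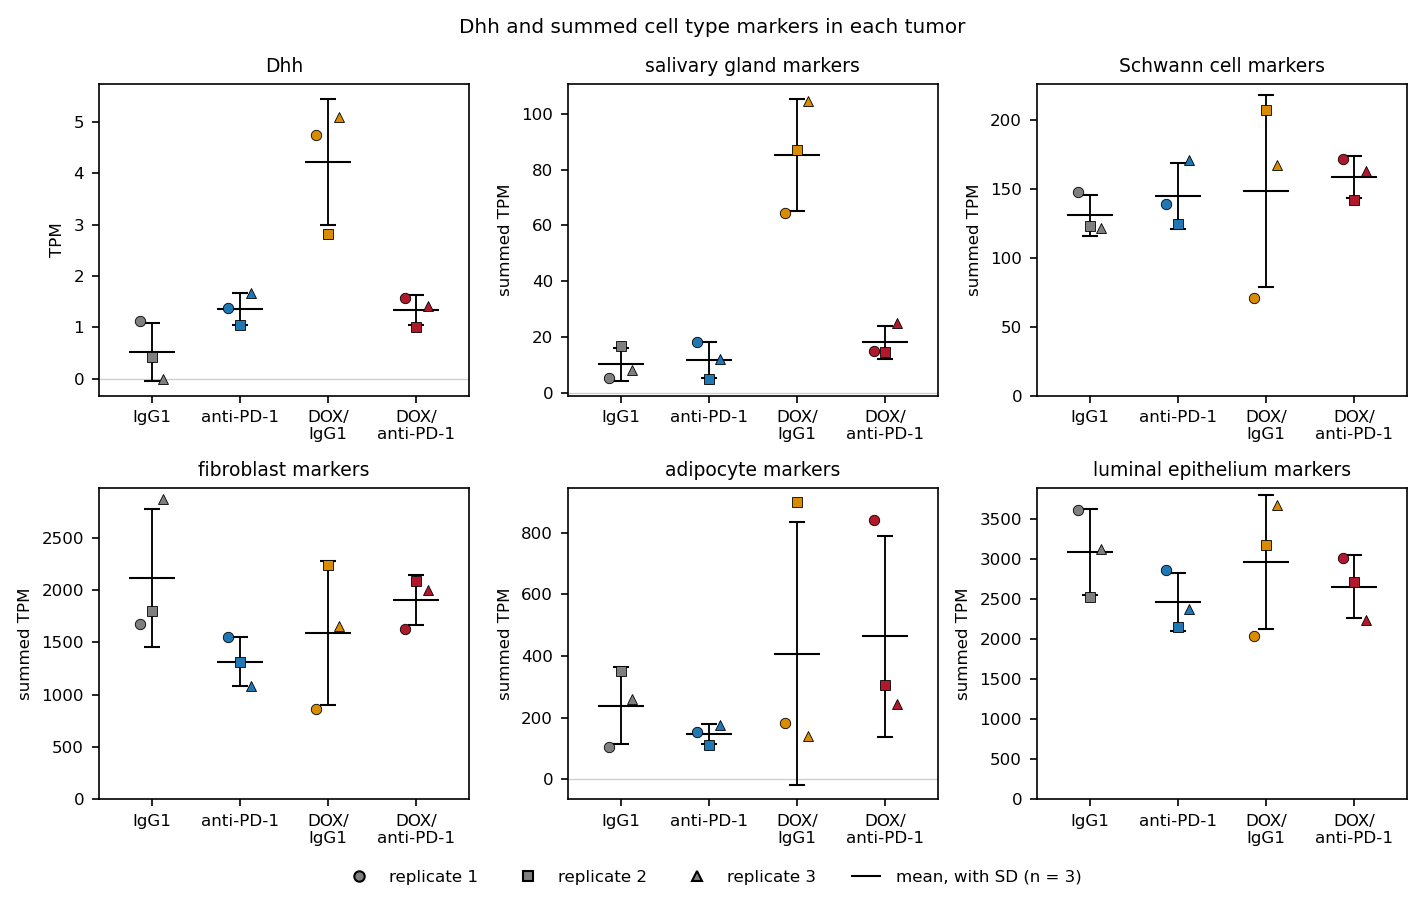
TPM of Dhh and summed TPM of the salivary gland, Schwann cell, fibroblast, adipocyte and luminal epithelium markers (vertical axes) in each of the 12 tumors by group, with a point for each tumor and bars for the mean and SD of 3 tumors. The DOX/IgG1 tumors are the highest for Dhh and the salivary sum, 64.4 to 104.6 TPM, while their Schwann sums run from 71.0 to 206.8 TPM.

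Other cell types were also listed at different levels between the groups. In the combination against anti-PD-1, adipocyte markers were positive in 8 of 8 genes with a median of 1.38 and 5 without overlap, fibroblast markers in 10 of 10 with a median of 0.65 and 6 without overlap, and pericyte and smooth muscle markers in 6 of 7 with a median of 0.92 and 4 without overlap. Of all genes tested 60.0% were positive and 11.1% higher without overlap, and none of these markers was called. The adipocyte sums, with Cfd the most abundant, were 839.6, 305.8 and 245.4 TPM in the combination tumors and 153.3, 112.0 and 177.1 TPM with anti-PD-1. The fibroblast sums of the combination tumors were 1630, 2083 and 2003 TPM. For pericyte and smooth muscle markers, led by Acta2, the sums were 476.0, 405.0 and 794.3 TPM in the combination tumors and 220.7, 309.8 and 334.5 TPM with anti-PD-1. Their part in the members' values was not tested.

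The remaining marker lists had smaller medians in that comparison, except the salivary gland list, whose only tested gene, Amy1, differed by 0.87. Endothelial markers (most abundant Pecam1) were positive in 6 of 7 genes with a median of 0.24, basal epithelial markers (Oxtr) in 5 of 5 with 0.43, and leukocyte markers (Ptprc) in 4 of 5 tested with 0.25. Their sums over the 12 tumors ran from 79.3 to 169.1 TPM, from 66.9 to 194.0 TPM and from 117.7 to 285.6 TPM. Luminal markers were positive in 2 of 6 with -0.11, Schwann cell markers in 4 of 8 tested with 0.04, and skeletal muscle markers in 3 of 7 with -0.03. Skeletal muscle sums ran from 0 TPM in DOX/anti-PD-1 replicate 2 to 785.0 TPM in DOX/anti-PD-1 replicate 1, so single tumors differed widely in this tissue.

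In the combination against DOX/IgG1, where Dhh and Gli3 parted, markers were positive in 8 of 10 fibroblast, 3 of 7 pericyte and smooth muscle, 7 of 8 adipocyte, 4 of 8 tested Schwann cell, 4 of 7 endothelial, 2 of 6 luminal, 4 of 5 basal, 0 of 5 tested leukocyte, 5 of 7 skeletal muscle and 0 of 4 tested salivary gland genes, beside 46.3% of all genes. In DOX/IgG1 against IgG1 the same counts were 5 of 10, 7 of 7, 6 of 8, 5 of 8, 3 of 7, 1 of 6, 4 of 5, 4 of 5, 3 of 7 and 4 of 4, beside 60.6% of all genes. In both salivary gland counts, Bpifa2 and Smr3a met the minimum only through the DOX/IgG1 tumors in which they are high. The direction of these genes was therefore set by the minimum. The part of any cell type in the levels of Dhh and Gli3 was not tested.

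The wider pathway was followed in 6 lists, of which the ligand, receptor and relay lists hold the 9 members themselves, and 0 of the listed genes were called in any of the 7 comparisons. In the combination against anti-PD-1 the medians were 0.43 for ligands and their release (3 of 5 tested genes positive), 0.34 for receptors and co-receptors (5 of 6), 0.09 for signal relay and GLI control (18 of 21), 0.01 for primary cilium transport (12 of 20), 0.20 for GLI targets outside the pathway (4 of 6) and -0.07 for proteasome subunits (14 of 31). In the same order the medians in DOX/IgG1 against IgG1 were 0.17 (3 of 5), 0.24 (7 of 7), 0.17 (16 of 22), 0.34 (19 of 20), 0.88 (4 of 5) and -0.01 (15 of 31). For the combination against DOX/IgG1 they were -0.02 (2 of 5), -0.37 (0 of 7), -0.14 (7 of 23), -0.22 (3 of 20), -0.33 (1 of 6) and 0.10 (20 of 31). All genes tested were positive in 60.0%, 60.6% and 46.3% in these 3 comparisons, and the last 2 share the DOX/IgG1 tumors. The target list holds 12 genes, so its medians rest on the 5 or 6 that reached the minimum. Foxf2 was listed at 0 in every tumor.

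**Figure D4:**
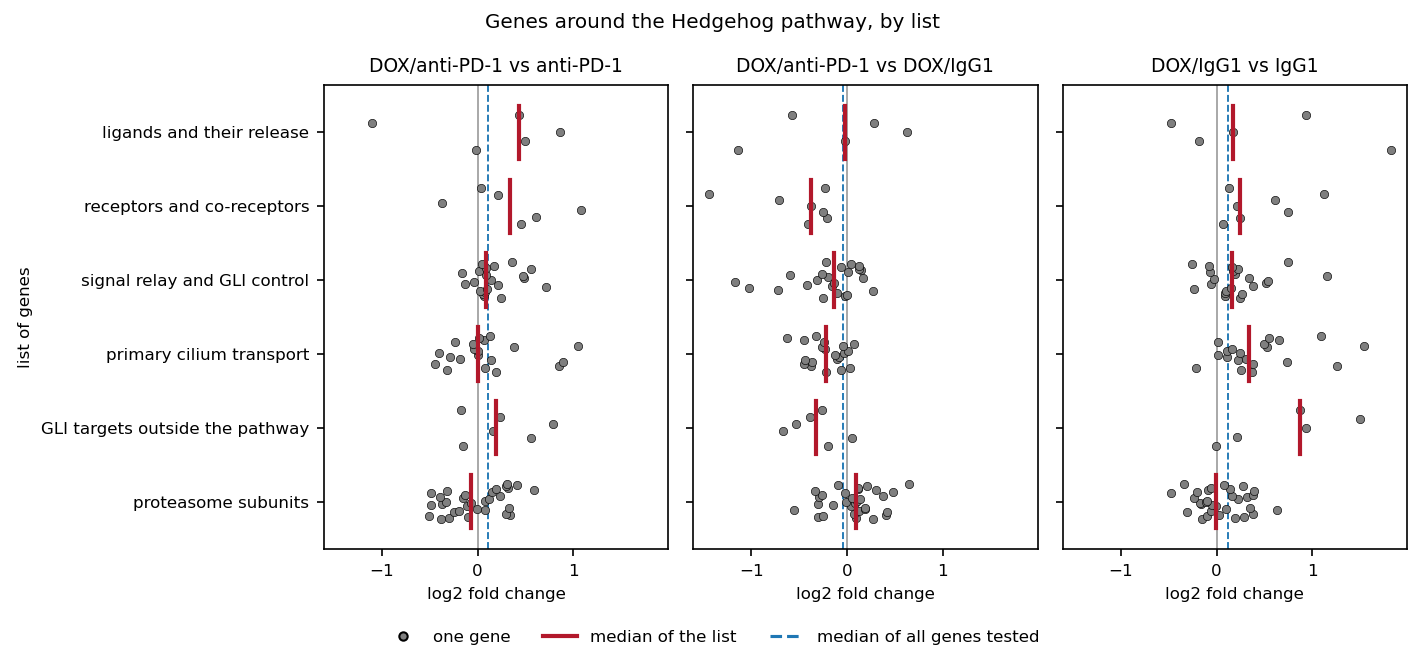
Log2 fold changes (horizontal axis) of the tested genes of 6 Hedgehog pathway lists in 3 comparisons, with a point for each gene, a thick bar for the median of the list and a dashed line for the median of all genes tested. The GLI targets have a median of 0.88 for DOX/IgG1 against IgG1 (5 of the 12 listed genes tested). For the combination against DOX/IgG1 it is -0.33 (6 of 12 tested), and both comparisons share the DOX/IgG1 tumors. The proteasome subunits are at -0.01 and 0.10.

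Among receptors, Gas1, a co-receptor that promotes signalling, was 16.58, 33.72 and 32.67 TPM with DOX/IgG1 and 14.30, 38.17 and 19.18 TPM with DOX/anti-PD-1. It was 8.69, 9.20 and 11.84 TPM with anti-PD-1, below all combination tumors, and 16.84, 12.12 and 17.42 TPM with IgG1. The mean of Gas1 was higher with DOX under both antibodies, by 0.92 on average on the log2 scale (95% interval 0.36 to 1.48, limma adjusted p 0.220). It passed the call rule when DOX/IgG1 replicate 1 was left out, with 1.08 and an adjusted p of 0.0657, over a range of 0.0657 to 0.363 across all alternatives.

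Kif7, a cilium kinesin that controls GLI processing, was 2.76, 2.28 and 2.83 TPM with DOX/IgG1, 2.68, 0.68 and 1.22 TPM with DOX/anti-PD-1 and at most 1.10 TPM in the other 6 tumors. Its DOX difference was 0.81 (95% interval 0.15 to 1.48, limma adjusted p 0.329), or 1.41 with a pseudocount of 0.1. Kif7 met the minimum only through the DOX tumors in which it is high, which favored this direction. Of the tumors without DOX, only anti-PD-1 replicate 3, at 1.10 TPM, reached 1 TPM. Kif7 overlaps Ticrr on the other strand, so the doubt about strand in counting given for Gli1 holds here too. Scube3, a secreted protein of the family that helps release ligand, had a DOX difference of 0.68 (0.05 to 1.31), with its highest value, 9.60 TPM, in DOX/IgG1 replicate 1. The most abundant genes of the ligand and relay lists were Hhat, which adds palmitate to the ligands (mean 13.98 TPM), and Prkar1a, a regulatory subunit of protein kinase A (mean 696.4 TPM).

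In the target list, 3 genes had unadjusted p-values that placed them among those to be named. Ccnd1 (cyclin D1) was 147.38, 110.41 and 181.89 TPM with DOX/IgG1 and 83.77, 89.10 and 98.74 TPM with DOX/anti-PD-1, while the IgG1 tumors held 67.00, 86.14 and 72.72 TPM and the anti-PD-1 tumors 62.70, 68.44 and 123.46 TPM. The DOX/IgG1 tumors were above the combination and the IgG1 tumors, as for Dhh, but overlapped the anti-PD-1 tumors, and the log2 fold change against IgG1 was 0.93 (95% interval 0.36 to 1.503, limma adjusted p 0.469). Sfrp1, a secreted Wnt inhibitor, was 76.96, 67.02 and 70.36 TPM with DOX/IgG1 and at most 43.53 TPM with IgG1, a log2 fold change of 0.88 (0.36 to 1.39, limma adjusted p 0.460), while 2 of the 3 combination tumors reached 63.11 and 67.08 TPM.

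Ccnd2 (cyclin D2) was 12.13, 44.47 and 47.96 TPM with DOX/IgG1, 21.25, 13.06 and 29.69 TPM with DOX/anti-PD-1 and between 8.58 and 12.54 TPM in the other 6 tumors. DOX/IgG1 replicate 1 was the low tumor of its group. Its average DOX difference was 1.14 (95% interval 0.44 to 1.83, limma adjusted p 0.220), and without DOX/IgG1 replicate 1 it passed the call rule with 1.37 and an adjusted p of 0.0507, over a range of 0.0507 to 0.365 across all alternatives.

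**Figure D5:**
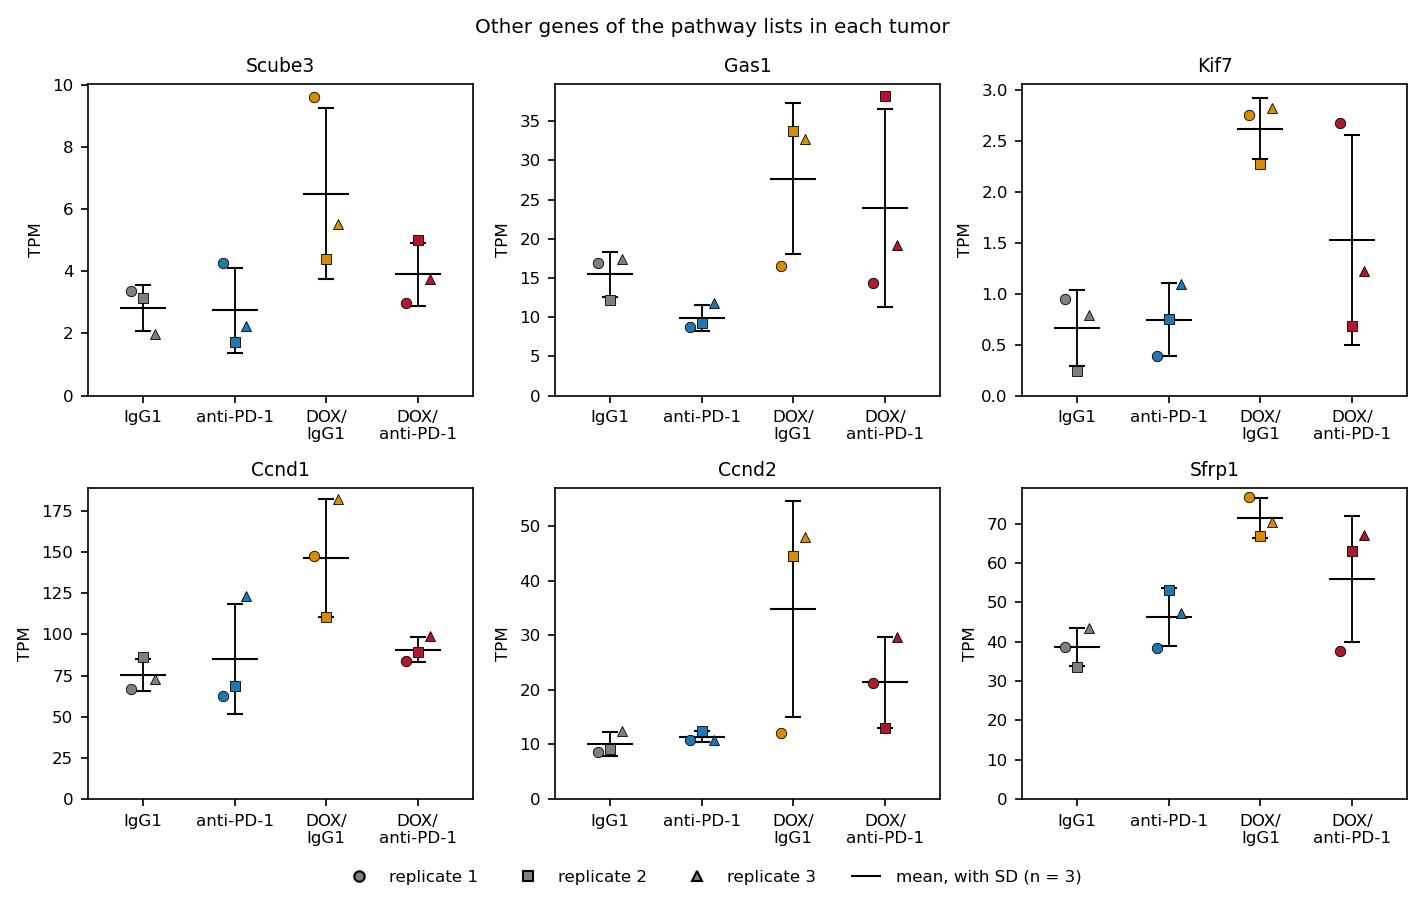
TPM of Scube3, Gas1, Kif7, Ccnd1, Ccnd2 and Sfrp1 (vertical axis) in each of the 12 tumors by group, with a point for each tumor and bars for the mean and SD of 3 tumors. Ccnd1 in the combination tumors, 83.77 to 98.74 TPM, lies below the DOX/IgG1 tumors, while Gas1 in the combination tumors, 14.30 to 38.17 TPM, lies above the anti-PD-1 tumors.

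In the cilium list, genes of intraflagellar transport and of the ciliary base, Mks1, Ift122 and Ift172 had the smallest p-values. Their average DOX differences were 1.29 (95% interval 0.50 to 2.09), 1.05 (0.41 to 1.70) and 0.81 (0.30 to 1.33), with limma adjusted p-values of 0.220, 0.220 and 0.225. Ift81, the most abundant at a mean of 60.4 TPM, differed by 0.01. Of the proteasome subunits, which break down or trim GLI proteins after ubiquitin marking, Psmd2, the most abundant, was 0.59 higher in the combination than with anti-PD-1 (0.13 to 1.05), and Psmd12 differed by -0.48 with DOX on average (-0.80 to -0.16). None of these 6 genes was called.

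Among the members themselves, the highest correlation of log2 levels over the 12 tumors was between Ptch1 and Boc (Pearson r 0.769, Spearman rho 0.678), which share their highest value in DOX/IgG1 replicate 1. The lowest was between Gli1 and Sufu (r -0.539). The genes most like each member were sought among those with a mean of at least 1 TPM, 14053 or 14054 genes, as a description with no test. Dhh was most like Tiparp (r 0.930, rho 0.888), Asb1 (0.922, 0.741) and Tmem150b (0.892, 0.852). For Gli3 they were Slc22a23 (r 0.903), Cemip2 (0.881) and Mtfmt (0.865), and for Ptch1 Shisa8 (0.940), Thoc5 (0.922) and Champ1 (0.911).

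For Smo they were Prrx2 (r 0.920), Magi1 (0.898) and Mipol1 (0.893), for Boc Wbp11 (0.951), Hbb-bt (0.916) and Ddx21 (0.916), and for Sufu Josd2 (0.947), Eif4g1 (0.877) and Acot7 (0.866). For the scarce members they were Sept10 (0.903), Ccr1 (0.892) and Zfp414 (0.878) with Gli1, Cetn2 (0.936), Mphosph8 (0.876) and Polr3gl (0.864) with Gli2, and Lag3 (0.870), Gm6169 (0.828) and Klhdc2 (0.825) with Hhip. None of these 27 genes is a member.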

How the data were processed

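The authors trimmed reads with skewer, aligned them with STAR (mm10) and obtained gene levels from RSEM. They deposited log2(TPM + 1) for 21960 genes in 12 whole tumors, which was reversed to TPM. All 12 tumors were used. Positions came from GENCODE vM21 by gene identifier. limma 3.58.1 (R 4.3.3; lmFit and trended eBayes, two-sided) was run on log2(TPM + 1) for genes with at least 1 TPM in at least 3 tumors of the fit, over all genes, with Benjamini-Hochberg adjustment. Each member had an exact permutation test as well. Count-based tests were not used because no counts were used here. The steps were checked on simulated data, with 200 genes of a mean log2(TPM + 1) above 2 changed by known amounts. Changed by 1.5 on the log2 scale, 63 of 200 were called in the combination against anti-PD-1 and 67 in DOX/IgG1 against IgG1. For DOX over both antibodies 174 were called, and 5 for the interaction. Changed by 3, the numbers were 186, 184, 199 and 165. Genes as scarce as Dhh were not among those changed, so a member that was not called may still differ. The members and lists were chosen with earlier results of these data known. Named beside the members were the most abundant gene of each list, up to 3 of its genes with the smallest unadjusted p below 0.05 in 3 comparisons with DOX, and the 3 genes most like each member. Alternatives were another pseudocount, other minimums, 2 scalings, a fit without trend, all 12 tumors in 1 fit, a replicate block and each tumor left out in turn.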

Additional observations from a re-analysis of the deposited data

Results flagged for a closer look

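Dhh is given here for its interaction of DOX and anti-PD-1, which was -1.84 on the log2(TPM + 1) scale with an unadjusted limma p of 0.00862 and an adjusted p of 0.993. It was 1 of 694 of 14735 genes with an unadjusted p below 0.05 and was not called. Leaving out each tumor in turn gave -2.12 to -1.58, and a pseudocount of 0.1 gave -3.42.

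The salivary gland genes Bpifa2 and Smr3a had interactions of -4.73 (limma adjusted p 0.0909) and -4.51 (0.206). Bpifa2 met the minimum only through the DOX/IgG1 tumors and was listed at 0 in the rest, and Smr3a was above 0 in 1 other tumor, so these sizes depend on the pseudocount. Whether salivary tissue was part of the DOX/IgG1 samples, and whether it bears on Dhh, was not tested.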

How the results depend on the processing

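The count of members called was 0 in all 162 alternatives of the 7 comparisons. Of 1489 alternative values of fold changes, 1421 kept direction and side of the limits, 64 changed sign and 4 passed the limits. Of 162 medians of the members, 147 moved by less than the SD of that median between tumors of a group. With no counts, the depth is unknown, and 3 tumors a group leave intervals close to 1 on the log2 scale. Leaving out each tumor with the tested genes held was chosen after seeing the data. Where values moved, the cause was not tested.

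Scaling by the median of ratios took the median of all genes in the combination against anti-PD-1 from 0.11 to -0.01. It turned Smo to -0.0871 and Sufu to -0.0767 there and Boc to -0.0497 in DOX/IgG1 against IgG1, and the DOX difference of Smo changed sign to -0.0367 with an exact p of 0.805, as it did without DOX/IgG1 replicate 1. It gave 3 genes called in the combination against DOX/IgG1, 14 for DOX over both antibodies and 0 for the interaction. Scaling to the same sum gave 3, 12 and 0. Without the mean-variance trend the counts were 3 in the combination against anti-PD-1, 3 against DOX/IgG1 and 2 against IgG1, 13 in DOX/IgG1 against IgG1, 1 in anti-PD-1 against IgG1, 0 for DOX over both antibodies and 3 for the interaction. With all 12 tumors in 1 fit they were 2 for the combination against DOX/IgG1 and 2 against IgG1.

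Pairing of tumors by replicate number is not stated and was not tested. Deviations from the group means were correlated across genes between tumors of different groups. The correlations ran from -0.0982 to 0.135 for tumors of the same number and from -0.192 to 0.114 for tumors of different number. As a replicate block the number gave 2 genes called in DOX/IgG1 against IgG1, 1 for DOX over both antibodies and 0 for the interaction.

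With log2(TPM + 0.1) the members' median was -0.59 in the combination against DOX/IgG1 and -0.62 for the interaction, where 0 genes were called. The interaction gave 3 genes with no minimum and 0 with a mean of at least 1 TPM.

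When single tumors were left out, the genes called ran from 0 to 4 in the combination against anti-PD-1, 0 to 4 against DOX/IgG1 and 0 to 6 against IgG1. They ran from 0 to 122 in DOX/IgG1 against IgG1, 0 to 4 in anti-PD-1 against IgG1, 0 to 212 for DOX over both antibodies and 0 to 1 for the interaction. The members' median ran from -0.76 to -0.23 in the combination against DOX/IgG1, where the low end comes from fits with 6 of the 8 members left after the minimum (with the tested genes held the lowest was -0.56), 0.13 to 0.33 in DOX/IgG1 against IgG1 and -0.53 to -0.15 for the interaction. In the combination against anti-PD-1, the values ran from -0.11 to 0.0877 for Dhh, -0.0185 to 0.58 for Ptch1, -0.0405 to 0.10 for Smo, -0.40 to 0.0940 for Gli3 and -0.0748 to 0.24 for Sufu. Against DOX/IgG1 they ran from -0.44 to 0.18 for Gli2, -0.20 to 0.33 for Sufu and -0.66 to 0.0243 for Boc. In DOX/IgG1 against IgG1 they ran from -0.0732 to 0.33 for Smo, -0.31 to 0.20 for Gli2 and -0.36 to 0.32 for Boc. Further ranges in the combination against anti-PD-1 were 0.30 to 0.68 for Boc, and against DOX/IgG1 -0.94 to -0.34 for Ptch1, -0.43 to -0.02 for Smo, -0.63 to -0.13 for Gli1 and -1.44 to -0.95 for Gli3. Against IgG1 they were 0.42 to 0.96 for Dhh -0.33 to 0.27 for Ptch1, -0.50 to 0.12 for Gli2, -0.48 to -0.12 for Boc, -0.92 to -0.43 for Gli3, -0.17 to -0.0285 for Smo, -0.33 to -0.0135 for Sufu and -0.33 to -0.10 for the members' median. In DOX/IgG1 against IgG1 they were 0.28 to 0.83 for Ptch1, 0.33 to 0.74 for Gli3 and -0.55 to -0.01 for Sufu. In anti-PD-1 against IgG1 they were 0.44 to 0.98 for Dhh, -0.14 to 0.43 for Gli2, -0.71 to -0.30 for Gli3, -0.32 to -0.17 for Sufu and -0.42 to -0.14 for the members' median, partly from fits with 6 of the 7 members. For DOX over both antibodies they were 0.24 to 0.60 for Ptch1, -0.0118 to 0.17 for Smo, -0.22 to 0.0197 for Sufu and 0.12 to 0.30 for the median, and for the interaction -0.63 to -0.03 for Ptch1, -0.66 to 0.00761 for Gli2, -0.30 to 0.11 for Smo and -0.92 to -0.43 for Gli3. The exact p ran from 0.14 to 0.85 for Smo and from 0.185 to 0.985 for Sufu. For Gli1 the exact p ran from 0.07 to 0.545, for Hhip from 0.1 to 0.6 and for Gli3 from 0.17 to 0.8.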
